A study of Mus musculus with 10 samples.

Results

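The genes described here are the 37 genes of the mouse mitochondrial DNA: 13 protein genes, 22 transfer RNA (tRNA) genes and 2 ribosomal RNA (rRNA) genes. They were taken as every row of the count table whose symbol starts with mt-, which gave 37 of 53465 genes. Single genes were chosen by symbol alone, but the group as a whole was selected on its share of counts per library, which was already known to be lower in the knockout, so shares, make-up and ratios are given as descriptions with no test. RNA was sequenced in bulk from peritoneal macrophages of mice aged 6 to 8 weeks, in 5 control libraries (CTR) and 5 libraries of Mac-GsαKO mice (KO), which by their name lack the G protein subunit Gsα in macrophages. All cells were kept in DMEM with serum and antibiotics and received no further treatment. For the strain, the Cre driver and any allele carried by the controls, nothing is stated in the labels. Nor do they state that each library came from its own mouse, so p-values reflect spread among libraries, which may be technical. In bulk RNA, fewer cells of a type and less RNA per cell cannot be told apart.

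Mitochondrial DNA is a small circle that is transcribed into long precursors from both strands. The transcript of the heavy strand carries most protein genes, both rRNAs and most tRNAs, and the transcript of the light strand carries mt-Nd6 and 8 tRNAs. Many tRNAs lie between the longer genes, and their removal by RNase P and ELAC2 releases the messenger and ribosomal RNAs. The proteins are core subunits of respiratory complexes I, III and IV and of the ATP synthase, and every other protein of the organelle is imported. Gsα, encoded by Gnas, couples receptors to adenylyl cyclase and so to cyclic AMP.

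Among the members called lower in KO were 7 tRNAs, of which mt-Ta and mt-Tp had the lowest fold changes of all tested members. Only mt-Ta kept its call whichever library was left out, and protein and rRNA genes were called too. The sequences of the 7 tRNAs are shown, chosen by this result. Each is printed from the GENCODE M21 transcripts (GRCm38), 5′ to 3′, as DNA letters, with capitals marking the anticodon that a script located from the stem, the loop and the vertebrate mitochondrial code.
mt-Ta: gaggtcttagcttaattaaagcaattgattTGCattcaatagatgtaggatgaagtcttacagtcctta
mt-Tn: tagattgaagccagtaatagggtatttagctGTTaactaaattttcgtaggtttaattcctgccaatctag
mt-Tc: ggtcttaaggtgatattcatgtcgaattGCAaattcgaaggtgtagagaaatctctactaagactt
mt-Ty: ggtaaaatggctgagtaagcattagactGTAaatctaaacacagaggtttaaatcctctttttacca
mt-Te: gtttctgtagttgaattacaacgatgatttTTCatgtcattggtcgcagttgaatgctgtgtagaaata
mt-Tp: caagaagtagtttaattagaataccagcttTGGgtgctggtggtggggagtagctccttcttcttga
mt-Tl1: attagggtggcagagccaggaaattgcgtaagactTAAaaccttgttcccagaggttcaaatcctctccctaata
They read codons for alanine, asparagine, cysteine, tyrosine, glutamate, proline and leucine in that order. The tRNAs from mt-Ta to mt-Ty are 4 neighbours on the light-strand transcript between mt-Nd2 and mt-Co1. mt-Te lies between mt-Nd6 and mt-Cytb and mt-Tp at the end of the gene order, both also on the light-strand transcript, whereas mt-Tl1 lies on the heavy-strand transcript between mt-Rnr2 and mt-Nd1.

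Library totals ranged from 15664243 to 19235777 counts. Gnas was at 359 to 491 CPM, a count relative to the library's TMM-scaled total, in CTR and 37.0 to 43.5 CPM in KO, so no library went against its label. CTR 4 stood apart from the other libraries on the second principal component, at -46.7 where the others ran from -10.9 to 25.6. The macrophage markers Cd68 and Adgre1 were abundant in both genotypes. Cd68 averaged 2929 CPM in CTR and 2828 CPM in KO, and Adgre1 750 CPM in CTR and 865 CPM in KO. For Adgre1 the edgeR adjusted p was 0.167, with an unadjusted p under 0.05. Summed B cell markers ran from 3.87 to 12.9 CPM in CTR and from 13.4 to 21.6 CPM in KO, with no overlap. Of the 4 tested B cell markers edgeR called 0, 2 had an unadjusted p under 0.05, and DESeq2 called 1 and voom 2, all higher. Over all tested genes, DESeq2 called 598 of 13196 higher and voom 1026 of 13203. Of the 9 macrophage markers, edgeR called Lyz2 lower and Csf1r and Itgam higher, and of 3 tested neutrophil markers it called S100a8 lower. Of those 3, DESeq2 called 1 lower and voom 2. Over all tested genes these tools called 691 of 13196 and 893 of 13203 lower. With 1 library left out, the call of Lyz2 held in all 10 fits, that of Csf1r in 6, and those of Itgam and S100a8 in 2 each. Their edgeR adjusted p with all libraries was 0.0494 for Itgam and 0.0443 for S100a8. Markers of other cells overlapped between the genotypes in their sums: T and NK cells at 0.282 to 2.22 CPM over all libraries, eosinophils at 3.65 to 9.85 CPM, neutrophils at 51.0 to 123 CPM and mesothelial cells and fibroblasts at 39.0 to 169 CPM. Mast cell markers lay between 1.45 and 29.9 CPM, erythroid markers between 0 and 0.339 CPM, and Ly6g, Ngp and Ear1 were at 0. The part of these markers in the results below was not tested.

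Mitochondrially encoded genes took a lower share of the counts in every KO library than in any CTR library, and the tRNAs had the lowest ratio of the 3 classes. The share of all 37 genes was 1.67%, 1.73%, 1.97%, 1.72% and 1.39% in CTR 1 to CTR 5. In KO 1 to KO 5 it was 1.26%, 1.20%, 1.32%, 1.32% and 1.36%. CTR 3 was the highest library, and CTR 5 lay just above the highest KO library. Protein genes made up nearly all of it, at 1.63% ± 0.205 (SD, n = 5) in CTR and 1.25% ± 0.0571 (SD, n = 5) in KO. The tRNA genes took 0.00857% ± 0.00129 in CTR and 0.00466% ± 0.000796 in KO (SD, n = 5 each), a ratio of 0.544, again with no overlap. The rRNA genes took 0.0529% ± 0.00767 in CTR and 0.0364% ± 0.00823 in KO (SD, n = 5 each), and here KO 3, at 0.0493%, lay within the CTR range.

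**Figure D1:**
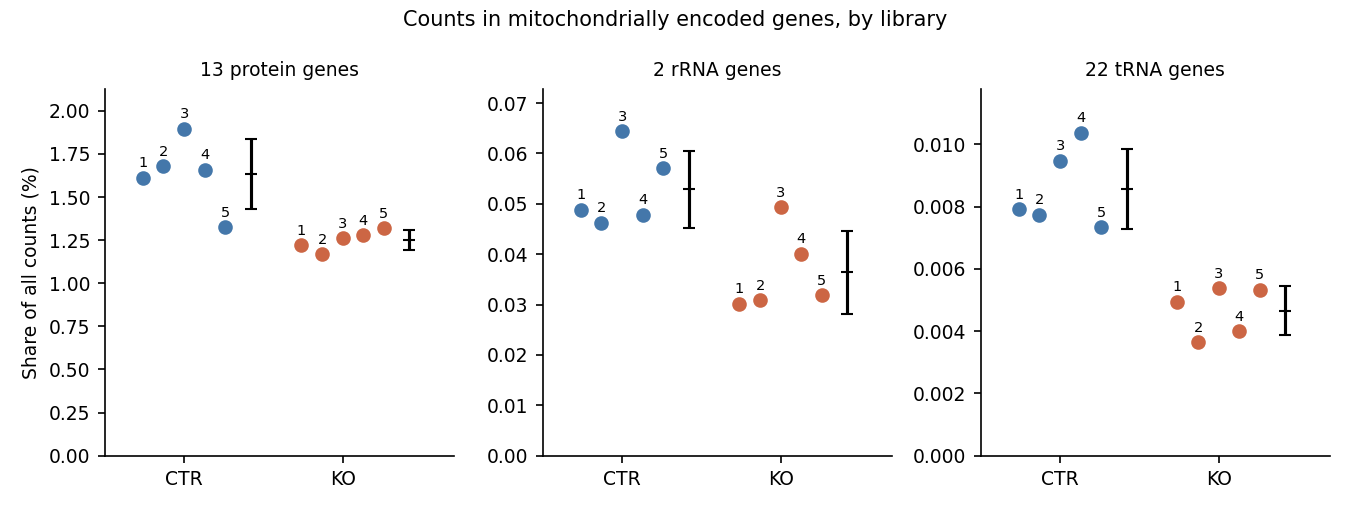
Share of all counts in each library, in percent, for the 13 protein, 2 rRNA and 22 tRNA genes of the mitochondrial DNA. Points are libraries with their replicate numbers, and bars show the mean ± SD of 5 libraries. The genotypes do not overlap for protein and tRNA genes and overlap for rRNA genes.

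The genotypes were then compared gene by gene with edgeR's quasi-likelihood test across all 13203 genes that passed the filter on low counts, and p-values were adjusted over all of them. Of the 37 members, 24 were tested and 13, all of them tRNAs, were too low to test. Adjusted p was under 0.05 for 12 members, all lower in KO, while 2.11% of all tested genes were called lower and 1.83% higher. All 24 tested members had a log2 fold change (KO over CTR) below 0, as did 50.8% of all tested genes. The median of the 24 was -0.58, with a range from -1.89 to -0.22, beside a median of -0.0058 over all tested genes. In 10 of the tested members every KO library lay below every CTR library, which held for 4.55% of all tested genes. Because the lower share was known when the group was proposed, nothing is read from these counts against their background.

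**Figure D2:**
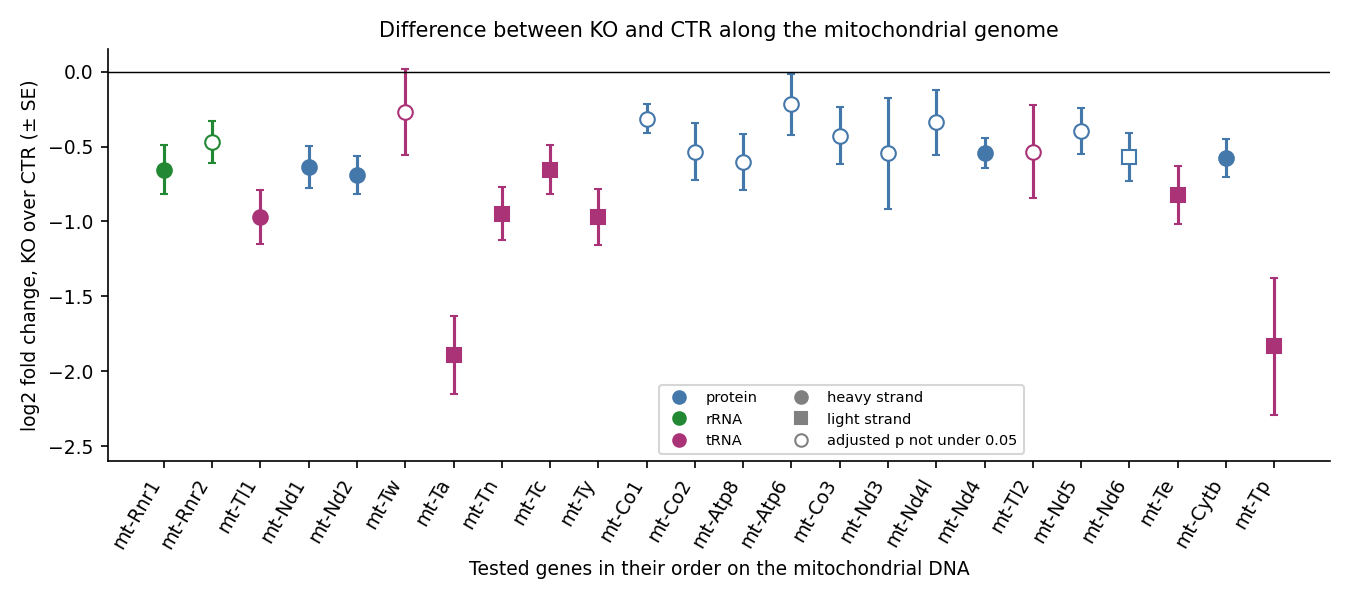
log2 fold change (KO over CTR) with its standard error for the 24 tested members, in gene order, coloured by class. Circles are genes of the heavy-strand transcript, squares those of the light-strand transcript, and filled symbols have an adjusted p under 0.05. All points lie below 0, and mt-Ta at -1.89 and mt-Tp at -1.84 lie lowest.

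All 6 light-strand tRNAs that could be tested were called lower, beside 2.11% of all tested genes, and their median was -0.96 on the log2 scale. In all 6 the genotypes did not overlap, which held for 4.55% of all tested genes. mt-Ta, the alanine tRNA, was at 6.37, 5.67, 7.84, 10.3 and 6.42 CPM in CTR 1 to 5 and at 1.91, 1.13, 2.39, 1.46 and 2.99 CPM in KO 1 to 5. The highest KO library, KO 5, thus stayed under the lowest CTR library, CTR 2. Its mean went from 7.33 ± 1.86 to 1.98 ± 0.739 CPM (SD, n = 5), a log2 fold change of -1.89 (SE 0.26, edgeR adjusted p = 0.00585), or 3.71-fold lower. It was the 1 member whose call held whichever library was left out, with adjusted p at most 0.0200.

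For the 3 tRNAs next to mt-Ta on the same strand the fold changes were smaller. mt-Tn, for asparagine, was at 14.5, 13.4, 17.7, 21.2 and 13.7 CPM in CTR and at 8.87, 5.99, 10.6, 7.15 and 9.07 CPM in KO. mt-Ty, for tyrosine, was at 8.44, 7.77, 10.2, 12.6 and 8.23 CPM in CTR and at 5.39, 3.38, 5.95, 4.16 and 5.17 CPM in KO. CTR 4 was the highest and KO 2 the lowest library for both. Their log2 fold changes were close, at -0.95 (SE 0.18, edgeR adjusted p = 0.0189) and -0.97 (SE 0.19, edgeR adjusted p = 0.0203). mt-Tc, for cysteine, lies between them and went from 16.6 ± 3.27 to 10.5 ± 2.08 CPM (SD, n = 5), with a log2 fold change of -0.65 (SE 0.17, edgeR adjusted p = 0.0495). The calls of mt-Tn and mt-Ty were each lost without CTR 3, KO 2 or KO 4, and that of mt-Tc without any 1 of the 10 libraries, where its adjusted p reached 0.125.

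Ratios inside a library do not depend on how libraries are scaled, and among these neighbours they differed between the genotypes. There were 0.440, 0.424, 0.443, 0.489 and 0.470 mt-Ta counts per mt-Tn count in CTR 1 to 5 and 0.216, 0.188, 0.227, 0.205 and 0.329 in KO 1 to 5. All KO libraries were thus below all CTR libraries. The mt-Tc counts per mt-Tn count went the other way, at 1.02 to 1.04 in CTR and 1.11 to 1.37 in KO. For mt-Ty per mt-Tn the genotypes overlapped, at 0.587 ± 0.0117 in CTR and 0.578 ± 0.0186 in KO (SD, n = 5 each). KO 5 was the KO library nearest to CTR in both ratios that differed. These tRNAs lie opposite the heavy-strand precursor, and no source used here says whether the counting used strand, so their reads and those of that precursor cannot be told apart.

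mt-Tp, the proline tRNA, separated KO 5 from the other KO libraries. It was at 5.64, 4.15, 5.81, 5.68 and 4.24 CPM in CTR 1 to 5 and at 0.927, 0.820, 1.05, 0.394 and 3.96 CPM in KO 1 to 5. KO 5 lay just under CTR 2, while the other 4 KO libraries were far below. The log2 fold change was -1.84 (SE 0.46, edgeR adjusted p = 0.0471), and without KO 5 it was -2.67 with an adjusted p of 0.000911. Without any other library the call was lost. mt-Te, the glutamate tRNA, was at 15.8, 18.1, 17.2, 29.3 and 12.3 CPM in CTR and at 10.3, 9.68, 11.4, 10.0 and 10.9 CPM in KO. CTR 4 was the highest, and the KO libraries were close together. Its log2 fold change was -0.82 (SE 0.19, edgeR adjusted p = 0.0383), a call lost without CTR 2, CTR 3 or any KO library.

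Of the 14 tRNAs of the heavy-strand transcript, 3 were tested, all with log2 fold changes below 0, and 1 was called lower. mt-Tl1, a leucine tRNA, was at 9.50, 9.06, 11.5, 7.50 and 8.29 CPM in CTR and at 5.16, 3.69, 4.49, 3.66 and 6.43 CPM in KO. The genotypes did not overlap, with KO 5 the highest in KO and CTR 4 the lowest in CTR. The log2 fold change was -0.97 (SE 0.18, edgeR adjusted p = 0.0189), and the call was lost without CTR 3, KO 2 or KO 4. mt-Tw, for tryptophan, averaged 0.709 CPM in CTR and 0.588 CPM in KO, with an edgeR adjusted p of 0.618. mt-Tl2, the other leucine tRNA, averaged 0.765 CPM in CTR and 0.526 CPM in KO, with an edgeR adjusted p of 0.342. The 11 untested heavy-strand tRNAs and the 2 untested light-strand ones, mt-Tq and mt-Ts1, had between 0 and 14 counts in each library. In the fit with no filter on low counts edgeR called 0 of these 13, with adjusted p from 0.344 to 0.994, and 1 of them, mt-Th for histidine, had an unadjusted p under 0.05. Only 4 of the 13 had a library at 0, where up to 3 counts are allowed.

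**Figure D3:**
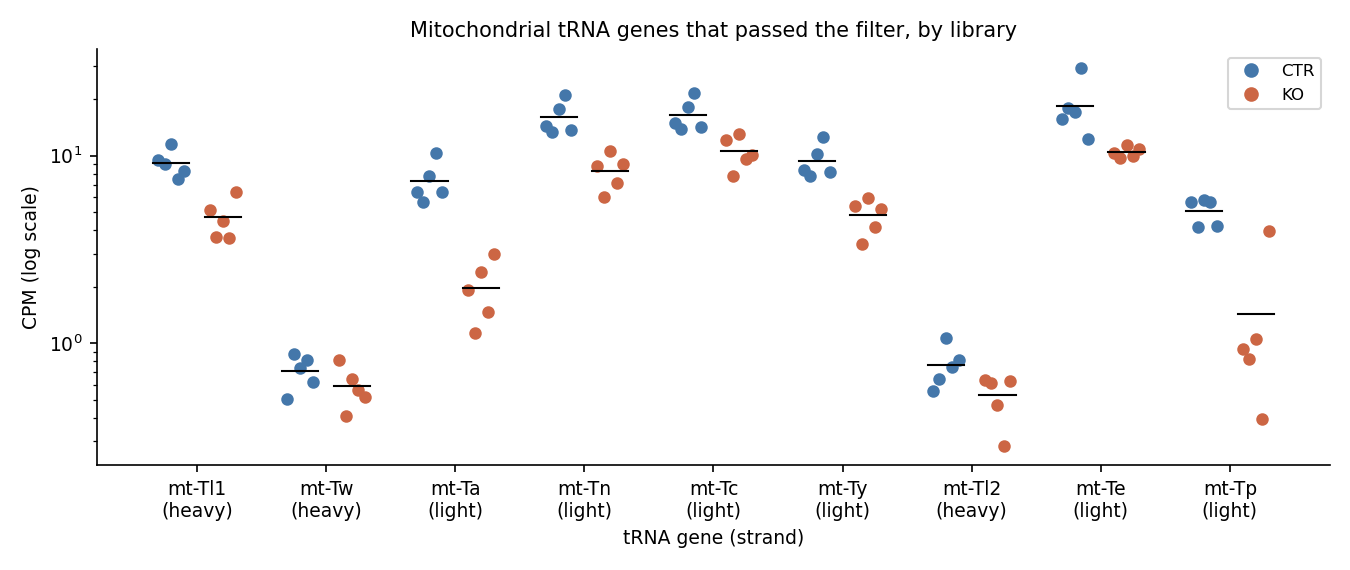
Level of the 9 tested tRNA genes in each library, in CPM on a log scale, with a line at the mean of each genotype. The 6 light-strand tRNAs and mt-Tl1 have all KO libraries below all CTR libraries, and KO 5 stands out for mt-Tp at 3.96 CPM.

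A length of under 200 bases was shared with 41 tested nuclear genes, of which 4 were called lower and 1 higher, with a median of 0.0081 on the log2 scale. That is 9.76% called lower in this group, beside 2.11% of all tested genes.

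Among the 13 protein genes, all with log2 fold changes below 0, 4 were called lower and 9 did not pass the test. Complex I, which takes electrons from NADH, had 3 of its 7 members called. mt-Nd2 was at 742, 715, 903, 729 and 531 CPM in CTR and at 433, 403, 449, 447 and 514 CPM in KO. Only KO 5 came near the lowest control, CTR 5, and the log2 fold change was -0.69 (SE 0.12, edgeR adjusted p = 0.0169). mt-Nd4 was at 976, 1022, 1208, 937 and 823 CPM in CTR and at 659, 644, 699, 685 and 719 CPM in KO, and the genotypes did not overlap. This gave a log2 fold change of -0.54 (SE 0.10, edgeR adjusted p = 0.0169). Both calls were lost without KO 1 or KO 2, with adjusted p at most 0.0582.

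mt-Nd1, also of complex I, was at 1301, 1299, 1639, 1697 and 1151 CPM in CTR and at 935, 764, 862, 819.6 and 1185 CPM in KO. KO 5 lay above CTR 5, so the genotypes overlapped. The log2 fold change was -0.63 (SE 0.14, edgeR adjusted p = 0.0315). mt-Cytb, cytochrome b and the sole complex III subunit of this genome, was at 1323, 1423, 1734, 1614 and 1191 CPM in CTR and at 1066, 804, 922, 907 and 1181 CPM in KO. Here KO 5 lay just under CTR 5, and the log2 fold change was -0.58 (SE 0.13, edgeR adjusted p = 0.0313). Both calls were lost without CTR 3 or without any 1 of KO 1 to KO 4.

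The other complex I genes did not pass the test. mt-Nd6, the protein gene of the light-strand transcript, averaged 386 ± 106 CPM in CTR and 259.8 ± 13.4 CPM in KO (SD, n = 5 each), with an edgeR adjusted p of 0.0668. mt-Nd5 overlaps mt-Nd6 by 14 bases on the other strand and had a log2 fold change of -0.40 (edgeR adjusted p = 0.162). mt-Nd4l and mt-Nd3 had log2 fold changes of -0.34 and -0.55 with edgeR adjusted p of 0.387 and 0.419. Spread within the genotypes was widest for mt-Nd3 among the protein genes, at a coefficient of variation of 58.4% in CTR and 47.4% in KO.

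None of the 3 genes of complex IV, the cytochrome c oxidase, passed the edgeR test, although all 3 had an unadjusted p under 0.05, DESeq2 called mt-Co1, and voom called mt-Co1 and mt-Co2. mt-Co1 was at 7628, 7735, 8273, 7285 and 6073 CPM in CTR and at 5459.9, 5908, 6365, 6541 and 5483 CPM in KO. CTR 5 lay among the KO libraries, and the other controls lay above them. Its log2 fold change was -0.31 (SE 0.10, edgeR adjusted p = 0.0890). For mt-Co2 and mt-Co3 the log2 fold changes were -0.53 and -0.43, with edgeR adjusted p of 0.131 and 0.213. Of the ATP synthase subunits edgeR called 0 of 2, while 1 had an unadjusted p under 0.05 and was called by DESeq2 and by voom. That was mt-Atp8, which had a log2 fold change of -0.61 (edgeR adjusted p = 0.0887). mt-Atp6 had one of -0.22 (edgeR adjusted p = 0.572). These 2 genes overlap by 43 bases, so their reads cannot be fully divided.

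The 2 rRNAs of the mitochondrial ribosome are neighbours at the start of the heavy-strand transcript. mt-Rnr1, of the small subunit, was at 283, 266, 354, 302 and 360.2 CPM in CTR and at 160.1, 166, 289, 213 and 166 CPM in KO. KO 3 lay within the CTR range. Its log2 fold change was -0.65 (SE 0.17, edgeR adjusted p = 0.0483), and the call held without CTR 4 or KO 3 and was lost without any of the other 8 libraries. mt-Rnr2, of the large subunit, averaged 223 ± 39.2 CPM in CTR and 161 ± 27.5 CPM in KO (SD, n = 5 each), and its log2 fold change of -0.47 did not pass (SE 0.14, edgeR adjusted p = 0.0786).

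The calls depended on which libraries were present more than the direction did. Leaving out 1 library left between 1 and 11 calls among the members. With KO 2 left out only mt-Ta was called. Without CTR 3 or KO 4 there were 3 calls each, mt-Ta, mt-Nd2 and mt-Nd4, and without KO 1 there were 4, mt-Tn, mt-Ta, mt-Tl1 and mt-Ty. Without KO 3 there were 7. Calls over all tested genes fell in the same fits: 279 were lower with all 10 libraries, 30 without KO 2 and 66 without CTR 3. Without KO 4, KO 1 and KO 3 there were 72, 79 and 166. In all of these fits the log2 fold changes of the 24 tested members stayed below 0.

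Part of the mitochondrial sequence has near-identical nuclear copies, which bear on at least 7 of the protein genes. A search of the annotated transcripts found 7 predicted genes of at least 99% identity, all on 1 nuclear chromosome and 1 strand within 4663 bases. They are Gm29216, Gm28661, Gm10925, Gm28437, Gm28438, Gm10222 and Gm28439, copies of mt-Co1, mt-Co2, mt-Atp6, mt-Co3, mt-Nd3, mt-Nd4l and mt-Nd4, listed in the order of the mitochondrial genes. They held 838311 counts over the 10 libraries, beside 2576924 in the 37 members. Only annotated transcripts were searched, so unannotated copies could be missed. That applies to mt-Atp8, mt-Ts1, mt-Td, mt-Tk, mt-Tg and mt-Tr, which lie between the 7 copied genes on the mitochondrial DNA. Matches of lower identity were not added. Gm13340, 97.6% identical to mt-Co1 over 1545 bases, held 18897 counts, and Gm13339, 96.7% identical to mt-Nd2 over 510 bases, held 163. A tRNA had such a match too: Cep295 was 91.5% identical to mt-Tn over 71 bases. It held 1181 counts, a number for that whole gene. Among the 7 copies, those of mt-Co1 and mt-Nd3 differed from the gene by a single base in the aligned stretch. It is shown here in capitals because it is the sole mark by which a read lying wholly within that stretch could be placed. Positions count from 1 at the first base of the mitochondrial transcript, and the mitochondrial base is named first (T3C in mt-Nd3, A1066T in mt-Co1).
mt-Nd3: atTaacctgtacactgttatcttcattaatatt
Gm28438: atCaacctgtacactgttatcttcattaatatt
mt-Co1: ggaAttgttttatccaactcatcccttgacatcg
Gm29216: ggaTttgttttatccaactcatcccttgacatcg

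The copies drew about as many counts as the gene where the copy was whole and fewer where it was partial. Summed over libraries, the copy's counts were 0.975 of those of mt-Co2, 1.09 of mt-Co3, 1.11 of mt-Nd3 and 1.02 of mt-Nd4l. For mt-Co1, copied over 483 of 1545 bases, they were 0.169, and for mt-Nd4, copied over 876 of 1378 bases, 0.372. mt-Atp6 was the exception, with 4.17 copy counts per gene count. All 7 copies had log2 fold changes below 0, from -0.62 to -0.34, and Gm28439 passed the test at -0.60 (SE 0.14, edgeR adjusted p = 0.0366). With the copies' counts added to their genes, the same 12 members were called. mt-Nd4 then had a log2 fold change of -0.56 (edgeR adjusted p = 0.0201) and mt-Atp6 one of -0.36 (edgeR adjusted p = 0.294). The share of all 37 genes with the copies was 2.25% ± 0.302 in CTR and 1.71% ± 0.0967 in KO (SD, n = 5 each), and the genotypes overlapped. Levels of the 7 genes are therefore uncertain, since no source used here says how reads with several matches were counted.

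**Figure D4:**
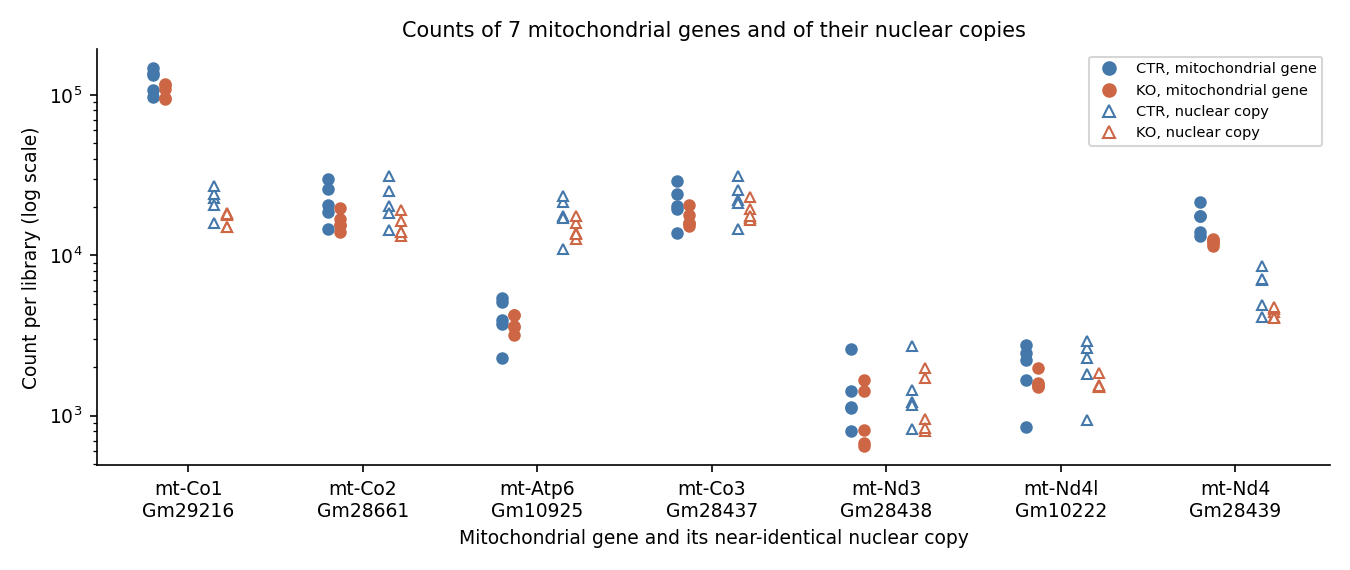
Counts per library on a log scale for 7 mitochondrial genes (filled circles) and their near-identical nuclear copies (open triangles), for CTR and KO. Gene and copy lie at the same height for mt-Co2, mt-Co3, mt-Nd3 and mt-Nd4l, the copy is higher for mt-Atp6 and lower for mt-Co1 and mt-Nd4.

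The deposited FPKM divide the counts by gene length, and on that scale levels of the protein and rRNA genes are set beside each other. For the 7 genes with nuclear copies the FPKM leave out the reads counted to the copy. Of the genes with no annotated copy of at least 99% identity, mt-Nd1 averaged 1209.9 FPKM over the 10 libraries and mt-Cytb 1058 FPKM. They were followed by mt-Nd6 at 617, mt-Nd2 at 562, mt-Nd5 at 511 and mt-Atp8 at 463 FPKM. The level of mt-Atp8 is uncertain too, since an unannotated copy could be missed. mt-Rnr1 at 267 FPKM and mt-Rnr2 at 121 FPKM lay below these 6 protein genes. For the genes with a copy, the level depends on where the shared reads are put. mt-Co1 averaged 4310.0 FPKM as deposited and 5040.4 FPKM with the copy's counts added, the highest member either way. mt-Co2 averaged 1619 and 3199 FPKM, and mt-Co3 1424 and 2969.9 FPKM. mt-Atp6 averaged 334 FPKM as deposited, below mt-Atp8, and 1729.8 FPKM with the copy, above mt-Nd1. mt-Nd3 averaged 206 FPKM as deposited, below mt-Rnr1, and 436 FPKM with the copy, above it. No source used here says whether rRNA was removed or messenger RNA selected. The tRNA genes are only 59 to 75 bases long, so their FPKM are compared among themselves only. Among the tRNAs, mt-Te at 207, mt-Tc at 204 and mt-Tn at 170.3 FPKM were highest. mt-Ta at 66.4 and mt-Tp at 48.2 FPKM were the lowest of the 7 called lower in KO. Whether these counts came from mature tRNAs or from their precursors was not tested.

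The make-up of the mitochondrial counts also varied. mt-Co1 held 43.1% ± 2.93 of them in CTR and 46.7% ± 4.08 in KO (SD, n = 5 each), with overlap. Complex I genes together held 27.7% ± 1.27 in CTR and 25.5% ± 1.35 in KO (SD, n = 5 each), also with overlap. The light-strand tRNAs held 0.424% ± 0.0657 in CTR and 0.295% ± 0.0445 in KO (SD, n = 5 each), and every KO library was below every CTR library. mt-Nd2 held 4.18% ± 0.314 in CTR and 3.52% ± 0.180 in KO (SD, n = 5 each) with no overlap. mt-Ta held 0.0425% ± 0.00850 in CTR and 0.0154% ± 0.00523 in KO (SD, n = 5 each), also with no overlap. Every other member taken singly overlapped, among them mt-Tn, mt-Tc, mt-Ty, mt-Te, mt-Tp and mt-Tl1.

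CTR 4 had another make-up than the other controls. mt-Nd3 held 0.376%, 0.379%, 0.406%, 0.925% and 0.367% of the mitochondrial counts in CTR 1 to 5 and 0.663%, 0.278%, 0.366%, 0.290% and 0.716% in KO 1 to 5. CTR 4, KO 5 and KO 1 were thus high and the other 7 libraries lower. mt-Co2 and mt-Co3 were highest in CTR 4 too, at 10.7% and 10.4%, followed by KO 5 and KO 1. mt-Nd4l was at 0.304% in CTR 4 and at 0.644% to 0.851% in the other 9 libraries. mt-Nd6 per mt-Nd5 count was 0.701 in CTR 4 and 0.296 to 0.344 in the other 9. With CTR 4 and CTR 5 left out, 13 members were called, of which 9 were among the 12. mt-Nd6, mt-Nd5, mt-Nd4l and mt-Co1 were added and mt-Rnr1, mt-Tc and mt-Tp lost. Calls over all tested genes rose in that fit too, to 491 lower and 694 higher of 13534. With all libraries they were 279 lower and 241 higher of 13203.

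**Figure D5:**
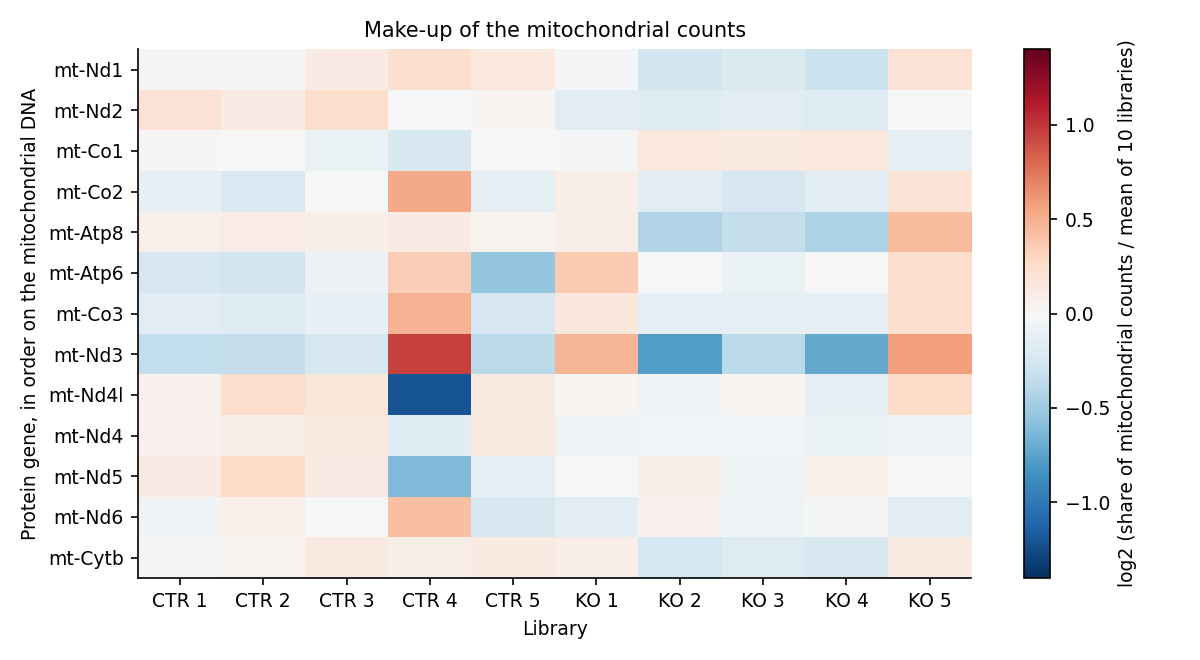
Share of the mitochondrial counts held by each protein gene in each library, as the log2 ratio to the mean share of 10 libraries (red higher, blue lower). CTR 4 is high for mt-Nd3, mt-Co2 and mt-Co3 and low for mt-Nd4l and mt-Nd5, and KO 1 and KO 5 are high for mt-Nd3.

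Nuclear genes that serve the mitochondrial genome were mostly not called by edgeR. Over all tested genes, DESeq2 called 691 lower and 598 higher of 13196, and voom 893 lower and 1026 higher of 13203. No share of all tested genes is given for an unadjusted p under 0.05, so those counts have no background here. Of 25 tested genes of mitochondrial DNA transcription and maintenance edgeR called 0, and their median was -0.08 on the log2 scale. Of these, 3 had an unadjusted p under 0.05, DESeq2 called 2 and voom called 1. The lowest p was that of Tfb1m, a dimethyltransferase of the small rRNA, whose mean went from 6.68 ± 0.511 to 4.49 ± 0.851 CPM (SD, n = 5 each; log2 fold change -0.57, edgeR adjusted p = 0.0537). Of 45 genes of mitochondrial RNA processing, modification and decay edgeR called 1 lower, or 2.22% beside 2.11% of all tested genes, with a median of -0.11. DESeq2 called 3 lower, voom called 5 lower and 2 higher, and 10 had an unadjusted p under 0.05. The edgeR call was Rexo2, an oligoribonuclease, at 55.0, 54.2, 59.2, 64.0 and 74.3 CPM in CTR and at 43.6, 38.4, 43.3, 41.1 and 47.4 CPM in KO. No KO library reached the CTR range (log2 fold change -0.52, SE 0.10, edgeR adjusted p = 0.0222), and the call was lost without CTR 3, KO 1, KO 2 or KO 4. Of 22 aminoacyl-tRNA synthetases and amidation factors edgeR called 1 lower (4.55%), and DESeq2 and voom each called 2 lower. The edgeR call was Gars1, which charges glycine tRNA in both cytosol and mitochondria (log2 fold change -0.41, SE 0.09, edgeR adjusted p = 0.0370), a call lost without any 1 of CTR 1 to 3 or KO 1 to 4. Of 16 nuclear regulators of biogenesis edgeR called 0, with a median of 0.05, while 2 had an unadjusted p under 0.05, DESeq2 called 1 and voom 3. The lowest p among them was that of the transcription factor Yy1 (log2 fold change 0.29, edgeR adjusted p = 0.0987).

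Nuclear subunits of the same complexes had medians below 0, and the few edgeR calls among them were all lower, while voom also called some higher. Their DESeq2 and voom calls stand beside the calls of those tools over all tested genes given above. For complex I, edgeR called 2 of 36 tested subunits lower (5.56%, beside 2.11% of all tested genes), DESeq2 called 6 lower, and voom called 5 lower and 3 higher, with a median of -0.19. Ndufs5 ran from 24.0 to 36.5 CPM in CTR and from 15.0 to 19.4 CPM in KO, with no overlap (log2 fold change -0.75, SE 0.12, edgeR adjusted p = 0.0110), and the call held without any 1 library. Ndufa11 had a log2 fold change of -0.53 (edgeR adjusted p = 0.0326), lost without CTR 3 or any KO library other than KO 3. For complex III, edgeR called 1 of 9 lower (11.1%), DESeq2 called 2 lower, and voom called 1 lower and 2 higher. The edgeR call was Uqcrb (edgeR adjusted p = 0.0495, log2 fold change -0.61, held without 2 of the 10 libraries only), with a median of -0.20. For complex IV, edgeR called 2 of 12 lower (16.7%), DESeq2 called 4 lower, and voom called 3 lower and 1 higher, with a median of -0.31. The edgeR calls were Ndufa4 at -0.55 and Cox6a1 at -0.54 (edgeR adjusted p = 0.0258 and 0.0388), calls whose adjusted p rose to 0.0753 and 0.111 with 1 library left out. For the ATP synthase, edgeR called 2 of 16 lower (12.5%), DESeq2 called 4 lower and voom 6 lower, with a median of -0.23. The edgeR calls were Atp5l at -0.85 (edgeR adjusted p = 0.0147, lost without KO 2) and Atp5o at -0.53 (edgeR adjusted p = 0.0294, lost without CTR 3 or any 1 of KO 1 to KO 4). Of the 4 tested subunits of complex II, none of which the mitochondrial DNA encodes, edgeR called 0, with a median of -0.10, while 1 had an unadjusted p under 0.05, DESeq2 called 1 and voom 0. That was Sdhb (log2 fold change -0.26, edgeR adjusted p = 0.101).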

How the data were processed

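Per the submitters' processing notes, CASAVA 1.8, HISAT2, SAMtools 1.3.1, edgeR and the build GRCm39 were used, with no role or order. Annotation, counter, strand setting and treatment of reads with several matches are not stated there. The authors deposited raw counts and FPKM for each Ensembl gene. The FPKM equal counts per length and column total to within 9.6e-06 for genes of at least 50 counts. Lengths recovered from them equalled the GENCODE M21 length for 37 of 37 members. That annotation is on GRCm38, so no coordinates are given. Symbols matched 53274 of 53465 identifiers.

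Counts were analysed with edgeR 4.0.16 in R 4.3.3: filterByExpr, TMM scaling and the quasi-likelihood test with genotype as the only term, two-sided, Benjamini-Hochberg adjustment over 13203 genes, threshold 0.05. Standard errors were taken as the size of the log2 fold change divided by the square root of F. A limit of 3 counts stands for a count of 0, for counting error only, since reads are not independent molecules. On simulated counts of 13079 genes, 41.8% of 1.5-fold, 76.1% of 2-fold and 100% of 4-fold changes were called. Nuclear copies were searched with blastn 2.17.0. The members, lists and settings were chosen with earlier results of these data known. The rule named every member and, of each list, its called genes (up to 4 by lowest p) or else the 1 of lowest p. Cd68 and Adgre1 fall outside it and were named after their values were seen. Prorp, Ndufb1, Atp5if1 and Atp5md had no match in the table. Other settings were DESeq2 1.42.0 size factors and Wald test, other scalings and filters, limma 3.58.1 voom weights, a robust fit, a replicate block and libraries left out. Adding nuclear copies, also to the FPKM, was chosen after seeing the data.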

Additional observations from a re-analysis of the deposited data

Results flagged for a closer look

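Among 56 sets of 5 libraries checked, 2 held a library whose gap to its nearest neighbour was too large a part of the set's range by Dixon's test, which chance gives in about 5% of sets. mt-Nd3 in CTR 4 was at 175 CPM, while the other CTR libraries lay between 49.9 and 80.1 CPM. mt-Tp in KO 5 was at 3.96 CPM, while the other KO libraries lay between 0.394 and 1.05 CPM. What sets these libraries apart was not tested.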

How the results depend on the processing

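The count of 12 called members was 10 with DESeq2 size factors, 11 with library size only, 11 scaled without the members, 12 with a CPM of at least 1, 12 in a robust fit and 16 by the DESeq2 Wald test. It was 6 with no filter on low counts, which tests more genes, and 19 with limma voom and sample quality weights, where the cause was not tested. With the replicate number as a replicate block it was 2, mt-Tn and mt-Ta. Residuals of equal numbers correlated between -0.126 and 0.0582. The labels do not say whether equal numbers pair the libraries, and these correlations cannot decide it. Leaving out 1 library gave 1 to 11 calls. Over all tested genes, 279 were called lower in the fit with all libraries, 691 by the DESeq2 Wald test and 893 by voom. There were 139 with no filter on low counts and 45 with the replicate block. With 1 library left out there were 30 to 384. Over the tested members and all settings, 403 values kept their side of the threshold, 80 lost a call, 19 gained one and 0 changed sign. The share difference of -0.405 percentage points stayed between -0.548 and -0.336. At this depth the 13 untested tRNAs and the reads shared with nuclear copies limit what can be said.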
